A study of Mus musculus with 12 samples.

Results

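The genes described here encode the core machinery that fuses synaptic vesicles with the plasma membrane of the nerve terminal. They were chosen by symbol and comprise 8 of the 23893 genes in a count table of mouse cortical neuron cultures: the target-membrane SNAREs Snap25 and Stx1a, the vesicle SNAREs Vamp1 and Vamp2, the complexins Cplx1 and Cplx2, the tomosyn Stxbp5 and the disassembly ATPase Nsf. The rule lists symbols and sets no threshold on a measured value. All 8 symbols were present in the table and counted in all 12 libraries, with a lowest single count of 110, for Vamp1.

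RNA from cultured cortical neurons was sequenced in 4 groups of 3 libraries. The cultures were prepared from embryos of days E13.5-15.5 and, by the study's methods, carried a Top1 allele with exon 3 flanked by loxP sites (Top1 fl/fl), whereas the labels describe wild-type C57BL6/J mothers and give WT or Top1 cKO as the genotype. On day in vitro (DIV) 3 the cultures received a lentivirus in which the CaMKIIα promoter, which is active in neurons, drove tdTomato alone (the WT groups) or tdTomato-P2A-CRE (the Top1 cKO groups), and about 85 to 90% of the cells were transduced. Cells in which the promoter was silent and untransduced cells did not receive CRE from this vector, and Top1 was not measured by cell type. From DIV 15 each kind of culture was exposed for 3 days to vehicle, 0.003% DMSO (WT-Veh and Top1 cKO-Veh), or to 300 nM topotecan in the same vehicle (WT-Topot and Top1 cKO-Topot). Topotecan is a drug that holds topoisomerase 1 on cut DNA, and Top1 is the gene of that enzyme. The comparisons therefore ask how the drug, the loss of the enzyme, and the drug in cultures that had lost most of the enzyme's transcript changed the mRNA of the fusion genes. Neither a culture that was untransduced nor one without vehicle was analysed here, so every group carries a virus and DMSO. No group received CRE without the floxed allele. Effects of CRE itself and of the loss of Top1, together called the deletion below, cannot be told apart.

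Fusion of a synaptic vesicle is driven by the zippering of SNARE proteins. The vesicle SNARE synaptobrevin (Vamp1 or Vamp2) winds together with the syntaxin Stx1a and SNAP-25, both on the plasma membrane, and the bundle pulls the membranes together. Complexins bind the partly zippered bundle and both clamp and assist release, the calcium sensor synaptotagmin 1 triggers fusion, tomosyn competes with synaptobrevin for the syntaxin and SNAP-25 pair, and NSF with its SNAP adaptors takes the used bundle apart. Vamp1 and Vamp2, like Cplx1 and Cplx2, are paralogues whose use differs between brain regions and neuron types.

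The libraries held 1730164 to 4583777 counts each, with a median of 2543273. Top1 was checked first: its normalised count was 117 to 163.5 counts per 1000000 (CPM, scaled by the trimmed mean of M-values, TMM) over the 6 tdTomato libraries, against 27.1 to 44.0 CPM over the 6 CRE libraries, which follows the labels. Summed CPM of 8 general neuronal markers overlapped in all groups, with single libraries between 5058 and 6560, and 1 of the 8 was lower in WT-Topot than in WT-Veh (with the replicate block, a fit described with Snap25, 3 lower and 1 higher). The vesicle protein gene Syp is among these markers and also in the wider fusion list described below. In WT-Veh it averaged 1938 CPM, where the markers summed to a mean of 5885 CPM. The summed CPM of 9 astrocyte markers was 2404 to 4944 in WT-Veh, 1140 to 1934 in WT-Topot, 2718 to 6254 in Top1 cKO-Veh and 1719 to 3189 in Top1 cKO-Topot, and that of 11 GABAergic interneuron markers was 817 to 1786, 581 to 1061, 1244 to 1458 and 956 to 1403 in the same order. Oligodendrocyte lineage markers summed to 98.5 to 297 CPM, with the myelin gene Mag at 0 throughout. Markers of microglia (at most 14.03 CPM), endothelial and mural cells (at most 44.6 CPM) and proliferating cells (at most 5.70 CPM) were near 0, with the endothelial gene Cldn5 at 0 in all groups but Top1 cKO-Topot. In such bulk libraries fewer cells of a type and less RNA per cell cannot be told apart.

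On NCBIM37, the assembly also called mm9, the 8 genes differ widely in span in the GENCODE vM1 annotation. Vamp2 is the shortest (chr11:68901992-68905886, plus strand, 3.895 kb), followed by Cplx2 (chr13:54472713-54485278, plus strand, 12.566 kb), Stx1a (chr5:135499352-135526970, plus strand, 27.619 kb), Vamp1 (chr6:125165569-125194561, plus strand, 28.993 kb) and Cplx1 (chr5:108947573-108979043, minus strand, 31.471 kb). Snap25 (chr2:136539189-136608164, plus strand) spans 68.976 kb. Nsf (chr11:103683096-103815370, minus strand, 132.275 kb) and Stxbp5 (chr10:9475345-9620877, minus strand, 145.533 kb) are the only members over 100 kb. No member shared exon bases with another annotated gene. In the RefSeq annotation Cplx2 starts 74788 bases upstream of the start given here, at chr13:54397925. Its RefSeq span is therefore longer, and its place in this order holds for GENCODE vM1 only.

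Promoter sequences are shown for Vamp1 and Cplx2, the members called higher than WT-Veh without the replicate block (explained with Snap25), and for Cplx1, the paralogue of Cplx2 that did not pass any test below. Each is the 250 bases before the gene's start in the RefSeq annotation of GRCm38.p6, written 5′ to 3′ on the gene's strand. Capitals mark matches, on either strand, to the GC box GGGCGG or the CCAAT box CCAAT.
Vamp1: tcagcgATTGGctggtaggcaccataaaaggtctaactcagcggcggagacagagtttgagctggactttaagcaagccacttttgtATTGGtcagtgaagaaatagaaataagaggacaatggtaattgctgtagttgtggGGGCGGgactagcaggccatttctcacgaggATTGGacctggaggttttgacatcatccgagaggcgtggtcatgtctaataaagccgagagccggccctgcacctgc
Cplx2: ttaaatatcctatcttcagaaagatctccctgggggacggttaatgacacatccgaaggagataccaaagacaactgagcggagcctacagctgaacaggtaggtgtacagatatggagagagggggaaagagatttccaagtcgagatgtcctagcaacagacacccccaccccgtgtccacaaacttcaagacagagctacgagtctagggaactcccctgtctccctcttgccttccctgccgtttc
Cplx1: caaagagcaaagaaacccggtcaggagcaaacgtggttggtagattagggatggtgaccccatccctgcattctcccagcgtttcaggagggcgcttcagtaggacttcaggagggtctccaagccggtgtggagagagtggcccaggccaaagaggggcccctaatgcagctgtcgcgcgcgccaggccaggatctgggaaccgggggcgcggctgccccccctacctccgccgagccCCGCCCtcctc
Each window matched NCBIM37 exactly once, at chr6:125165349-125165598 for Vamp1, chr13:54397675-54397924 for Cplx2 and chr5:108979047-108979296 for Cplx1. The Vamp1 and Cplx1 windows ended within 3 bases of an annotated transcript start, whereas the RefSeq start of Cplx2 lay 74788 bases from the nearest one in the NCBIM37 annotation used here, so the promoter that served Cplx2 in these cultures was not determined. The Vamp1 window held 3 CCAAT boxes and 1 GC box, the Cplx1 window held 1 GC box, and the Cplx2 window held neither. Over 32851 such windows, 33.8% held a CCAAT box and 32.7% a GC box. None of the 3 windows held the cyclic AMP response element TGACGTCA (1.55% of all windows), the EGR motifs GCGTGGGCG or GCGGGGGCG (3.06%), TATAAA (12.4%) or the E box CACGTG (6.02%). The GC content was 50.4% for Vamp1, 50.8% for Cplx2 and 64.8% for Cplx1, against a median of 52.4% over all windows. The table of promoters held a window for 6 of the 8 members, Cplx1, Cplx2, Vamp1, Stx1a, Stxbp5 and Nsf.

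Per kilobase of exon, Vamp2 was the most abundant of the 8 transcripts in every group, and Stxbp5 and Vamp1 were the least abundant. In WT-Veh the levels, as CPM per kilobase of exon (RPKM; mean ± SD, n = 3), were 472.9 ± 22.1 for Vamp2, 215.7 ± 31.1 for Cplx1, 205.8 ± 58.8 for Snap25, 193.9 ± 35.1 for Cplx2, 67.7 ± 11.3 for Nsf, 60.7 ± 9.26 for Stx1a, 10.4 ± 2.77 for Stxbp5 and 6.87 ± 2.72 for Vamp1. Cplx1, Snap25 and Cplx2 lay within their spread of each other, as did Nsf and Stx1a, and Stxbp5 and Vamp1. The order moved with the groups. Cplx2 was in second place at 338.2 ± 38.8 in WT-Topot, at 376.6 ± 23.4 in Top1 cKO-Veh and at 366.0 ± 47.9 in Top1 cKO-Topot, and in both Top1 cKO groups Vamp1 (16.4 ± 2.52 and 21.9 ± 3.59) stood above Stxbp5 (12.5 ± 1.16 and 13.2 ± 1.22). These positions rest on the union of GENCODE vM1 exons as the length, whereas the counts were taken over RefSeq exons. The levels per kilobase and their order are therefore approximate. With the longest transcript as the length, Snap25 took second place in WT-Veh and in both Top1 cKO groups. By that length Vamp1 stood above Stxbp5 in WT-Topot as well (16.3 and 12.99), so their order depends on the length. Any Cplx2 exon near its upstream RefSeq start is not in the length used.

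**Figure D1:**
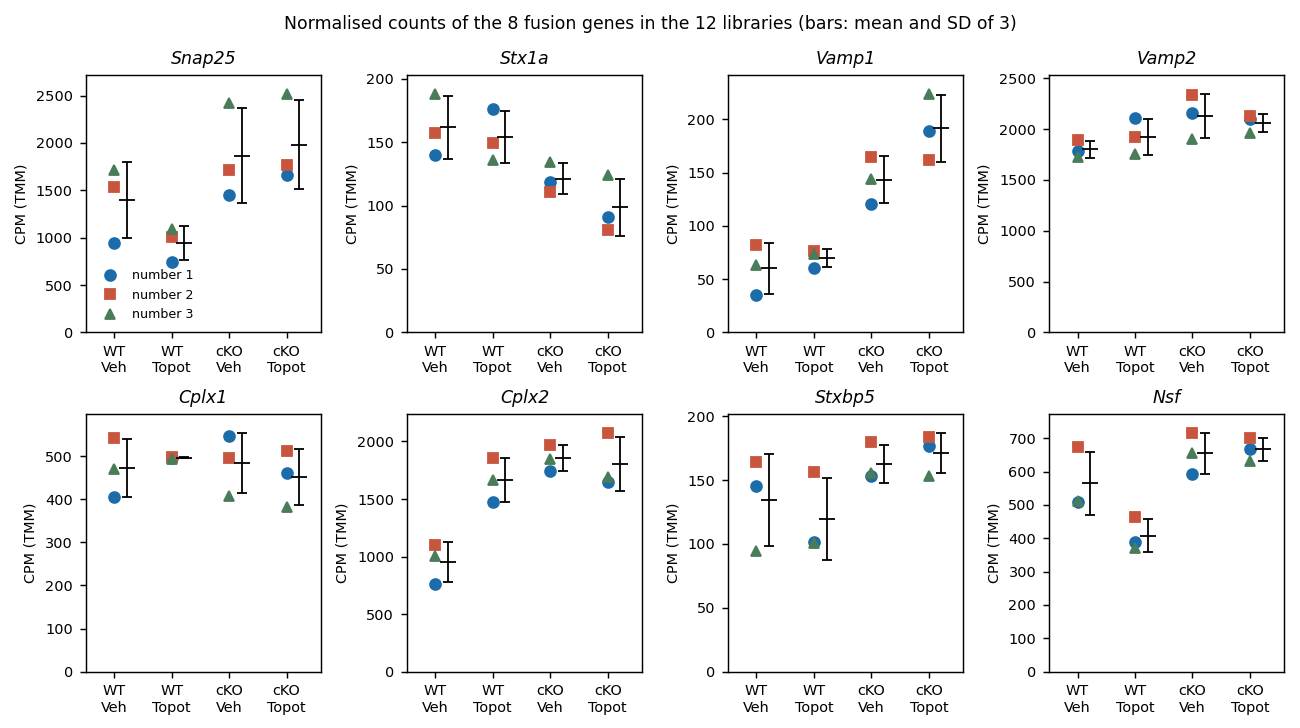
Normalised counts (CPM, TMM-scaled) of the 8 fusion genes in each of the 12 libraries, with the library's replicate number given by symbol and the group mean ± SD (n = 3) as a black bar beside the points; cKO stands for Top1 cKO. The 3 WT-Veh libraries of Cplx2 lie at 764 to 1100 CPM, below all other libraries, and Vamp1 is at 34.8 to 82.0 CPM where the virus carried tdTomato alone and at 120.8 to 224.3 CPM where it carried CRE.

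Snap25 encodes SNAP-25, which supplies a pair of helices to the SNARE bundle. Its normalised count was 948, 1534 and 1710 CPM in the WT-Veh libraries numbered 1, 2 and 3, and 747, 1006 and 1089 CPM in WT-Topot. It was 1451, 1716 and 2421 CPM in Top1 cKO-Veh and 1663, 1765 and 2520 CPM in Top1 cKO-Topot. Within all 4 groups the library numbered 1 was the lowest and the one numbered 3 the highest, and WT-Topot did not overlap the Top1 cKO groups. How many of all genes had WT-Topot apart from both Top1 cKO groups was not counted. Libraries that share a number deviated together across genes, so each comparison was fitted without and with the number as a block. WT-Topot was lower than Top1 cKO-Veh, with a log2 fold change of -0.97 for Snap25 (SE 0.18, edgeR quasi-likelihood test, adjusted p = 0.00502), a call lost without the WT-Topot library numbered 1 (-0.82, adjusted p = 0.0232) and with a filter on low counts (filterByExpr; adjusted p = 0.0206). Relative to WT-Veh the log2 fold change of Snap25 was -0.56 (SE 0.20, adjusted p = 0.168) with the drug and 0.41 (SE 0.22, adjusted p = 0.687) with the deletion, and neither passed the threshold of an adjusted p of 0.01. With the replicate block both passed, in opposite directions, at -0.53 (SE 0.09, adjusted p = 3.43e-06) for the drug and 0.43 (SE 0.09, adjusted p = 4.64e-05) for the deletion. The same-number ratios were negative in 3 of 3 pairs for the drug, between -0.65 and -0.34 on the log2 scale, and positive in 3 of 3 pairs for the deletion, between 0.16 and 0.61. In Top1 cKO-Topot relative to WT-Veh the value was 0.53 (SE 0.20, adjusted p = 0.201), and with the block Snap25 was called higher, at 0.55 (adjusted p = 7.23e-05).

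Stx1a encodes syntaxin 1A, the partner of SNAP-25 on the plasma membrane. Its counts were 139.6, 157.3 and 188.3 CPM in WT-Veh, 176.3, 149.7 and 136.2 CPM in WT-Topot, 118.9, 110.4 and 134.3 CPM in Top1 cKO-Veh, and 91.2, 81.0 and 124.2 CPM in Top1 cKO-Topot. Every Top1 cKO library lay below every tdTomato library. The share of all genes split in this way by the virus was not counted. The log2 fold change relative to WT-Veh was -0.06 (SE 0.19, adjusted p = 1) in WT-Topot, -0.42 (SE 0.19, adjusted p = 0.533) in Top1 cKO-Veh and -0.69 (SE 0.21, adjusted p = 0.0703) in Top1 cKO-Topot by edgeR, none of which passed. With the replicate block the last was lower at -0.70 (SE 0.14, adjusted p = 4.01e-04), and Top1 cKO-Veh was at -0.41 (adjusted p = 0.0256). The number of Snap25 counts for each Stx1a count, a ratio within a library, was 6.79 to 9.75 in WT-Veh, 4.24 to 7.99 in WT-Topot, 12.2 to 18.0 in Top1 cKO-Veh and 18.2 to 21.8 in Top1 cKO-Topot.

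Vamp1 had the largest fold change among the 8 genes. It encodes synaptobrevin 1, the less abundant of the vesicle SNAREs here. Its counts were 34.8, 82.0 and 63.4 CPM in WT-Veh and 60.3, 76.1 and 73.2 CPM in WT-Topot, against 120.8, 164.9 and 144.3 CPM in Top1 cKO-Veh and 188.8, 161.7 and 224.3 CPM in Top1 cKO-Topot. All CRE libraries were above all tdTomato libraries, a split whose share over all genes was not counted. Vamp1 rose in Top1 cKO-Topot relative to WT-Veh by 1.70 on the log2 scale (SE 0.25, 95% confidence interval 1.18 to 2.23, edgeR adjusted p = 2.36e-04), and WT-Topot was lower than Top1 cKO-Veh (log2 fold change -1.04, SE 0.19, adjusted p = 0.00319). The latter call was lost without the WT-Topot library numbered 1 (-0.93, adjusted p = 0.0194) or 3 (-1.05, adjusted p = 0.0110) and without the Top1 cKO-Veh library numbered 2 (-0.91, adjusted p = 0.0265). In Top1 cKO-Veh relative to WT-Veh its log2 fold change was 1.27 (SE 0.26, 95% confidence interval 0.71 to 1.83, adjusted p = 0.0402) without the block, short of the threshold, and 1.32 (SE 0.15, adjusted p = 9.71e-17) with it. DESeq2 also placed this difference past the threshold (adjusted p = 0.00426), as did edgeR without the Top1 cKO-Veh library numbered 1 (1.37, adjusted p = 0.00373).

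Vamp1 passed no test of topotecan in WT cultures. The log2 fold change of WT-Topot relative to WT-Veh was 0.23 (SE 0.26, 95% confidence interval -0.30 to 0.77, edgeR adjusted p = 0.888). In Top1 cKO cultures the drug gave 0.43 (SE 0.18, adjusted p = 1), and with the replicate block 0.41 (SE 0.11, adjusted p = 0.00497), with 2 of 3 same-number pairs above 0. The difference between these drug effects was 0.18 (SE 0.33, adjusted p = 1), so an effect of the drug particular to the Top1 cKO cultures was not shown. The summed interneuron markers overlapped between WT-Veh and Top1 cKO-Veh, where 0 of 11 passed the unblocked test and 2 were higher with the block, the transcription factor genes Dlx1 (0.74) and Lhx6 (0.83). Between WT-Topot and Top1 cKO-Veh the sums did not overlap (581 to 1061 and 1244 to 1458 CPM) and 1 of 11 was lower without the block and 6 with it. In WT-Topot relative to WT-Veh 0 of 11 passed without the block, and 5 were lower and 2 higher with it. Their part in the Vamp1 values was not tested.

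Vamp2, synaptobrevin 2, is the main vesicle SNARE of forebrain synapses. Its counts were 1785, 1893 and 1727 CPM in WT-Veh, 2104, 1923 and 1751 CPM in WT-Topot, 2153, 2335 and 1898 CPM in Top1 cKO-Veh and 2098, 2126 and 1957 CPM in Top1 cKO-Topot. The 3 libraries of each Top1 cKO group were above the 3 of WT-Veh, by a narrow margin: the lowest of the former was at 1898 CPM and the highest of the latter at 1893 CPM. No test of Vamp2 passed. The log2 fold change by edgeR was 0.10 (95% confidence interval -0.20 to 0.41, adjusted p = 1) for the drug, 0.24 (-0.07 to 0.55, adjusted p = 0.782) for the deletion and -0.04 (-0.32 to 0.24, adjusted p = 1) for the drug in Top1 cKO cultures. With the block the deletion gave 0.24 (adjusted p = 0.0570). Within each library, 100 Vamp2 counts went with 1.95 to 4.33 Vamp1 counts in WT-Veh, 2.87 to 4.18 in WT-Topot, 5.61 to 7.60 in Top1 cKO-Veh and 7.61 to 11.5 in Top1 cKO-Topot, and every CRE library was above every tdTomato library.

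Cplx2 was the only member that rose with topotecan in WT cultures. It encodes complexin 2, and its counts were 764, 1100 and 1002 CPM in WT-Veh, 1474, 1856 and 1668 CPM in WT-Topot, 1741, 1972 and 1851 CPM in Top1 cKO-Veh and 1645, 2074 and 1689 CPM in Top1 cKO-Topot. The 3 WT-Veh libraries were the lowest of the 12, and the other 3 groups overlapped. The share of all genes with WT-Veh apart in this way was not counted. Relative to WT-Veh it was higher by 0.81 on the log2 scale with the drug in WT cultures (SE 0.17, 95% confidence interval 0.45 to 1.16, edgeR adjusted p = 0.00584) and by 0.94 with both the deletion and the drug (SE 0.17, 0.58 to 1.29, adjusted p = 0.00216). In Top1 cKO-Veh the log2 fold change was 0.96 (SE 0.17, 0.60 to 1.31, adjusted p = 0.0144), just short of the threshold, and 0.97 (SE 0.09, adjusted p = 2.09e-24) with the replicate block. All 3 same-number pairs were positive in each of these comparisons, the smallest at 0.74 on the log2 scale. The WT-Topot call was lost without the WT-Veh library numbered 1 (0.66, adjusted p = 0.0127) or the WT-Topot library numbered 2 (0.72, adjusted p = 0.0177) or 3 (0.80, adjusted p = 0.0145), and with filterByExpr (0.78, adjusted p = 0.0161). The Top1 cKO-Topot call was lost without the library of that group numbered 2 (0.80, adjusted p = 0.0264) and with filterByExpr (0.91, adjusted p = 0.0123). The Top1 cKO-Veh value passed without the WT-Veh library numbered 3 (0.99, adjusted p = 0.00751) or the Top1 cKO-Veh library numbered 1 (0.99, adjusted p = 0.00457) or 3 (0.96, adjusted p = 0.00634), and by DESeq2 (adjusted p = 9.90e-05).

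In Top1 cKO cultures the drug left Cplx2 close to its vehicle level, with a log2 fold change of -0.03 (SE 0.14, 95% confidence interval -0.32 to 0.26, edgeR adjusted p = 1). The drug effect in Top1 cKO minus that in WT was -0.84 (SE 0.22, adjusted p = 0.0609), and with the replicate block -0.86 (SE 0.11, adjusted p = 1.30e-07). WT-Topot and Top1 cKO-Veh differed by -0.16 (SE 0.14, 95% confidence interval -0.45 to 0.14, adjusted p = 0.885).

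Cplx1, complexin 1, did not follow its paralogue. Its counts were 405.5, 541.7 and 469.4 CPM in WT-Veh, 496.3, 496.9 and 494.2 CPM in WT-Topot, 546.3, 496.0 and 407.8 CPM in Top1 cKO-Veh and 459.7, 511.4 and 382.9 CPM in Top1 cKO-Topot. All groups overlapped. The edgeR log2 fold change relative to WT-Veh was 0.08 (SE 0.17, 95% confidence interval -0.27 to 0.42, adjusted p = 1) for the drug and 0.04 (SE 0.18, -0.34 to 0.41, adjusted p = 1) for the deletion. The ratio of Cplx2 to Cplx1 counts within a library was therefore 1.88, 2.03 and 2.13 in WT-Veh, 2.97, 3.73 and 3.37 with topotecan in WT cultures, 3.19, 3.98 and 4.54 in Top1 cKO-Veh and 3.58, 4.05 and 4.41 in Top1 cKO-Topot. Per kilobase of exon, Cplx2 made up 45.6 to 48.7% of the 2 complexin transcripts in WT-Veh and 56.9 to 66.9% in the other libraries. The lengths are those of GENCODE vM1, so these shares are approximate. The further complexins Cplx3 and Cplx4 belonged to the wider list described below and passed no test. Cplx4 had 1 count in the WT-Veh library numbered 1 and 0 in every other library, and Cplx3 had at most 20 in a library. Counts this low leave their tests unable to decide.

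**Figure D2:**
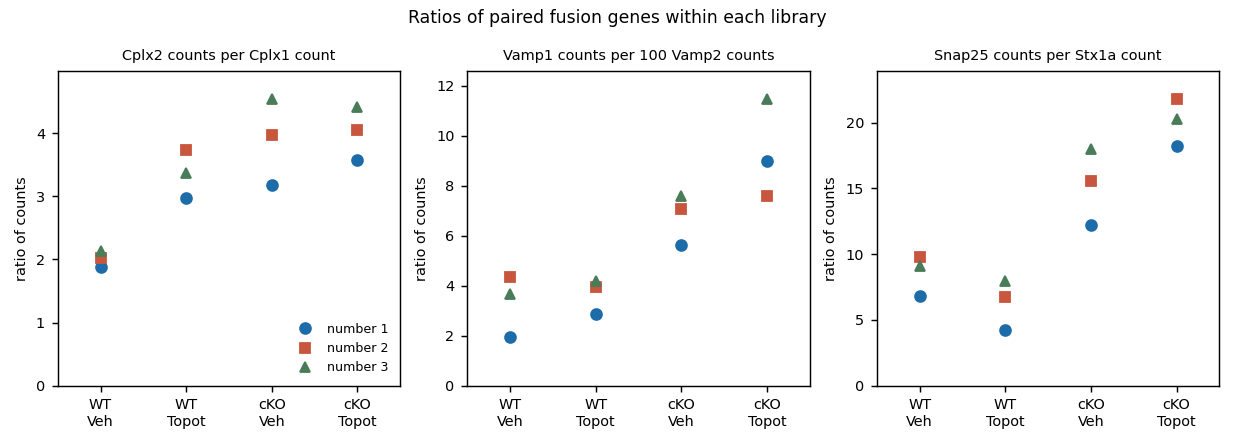
Ratio of raw counts of related fusion genes within each library, by group, with the replicate number given by symbol. Cplx2 per Cplx1 is lowest in WT-Veh (1.88 to 2.13), and Vamp1 per 100 Vamp2 is at most 4.33 in the tdTomato libraries and at least 5.61 in the CRE libraries.

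Stxbp5 encodes tomosyn 1, which holds syntaxin and SNAP-25 in a form that cannot engage synaptobrevin. Its counts were 145.4, 163.9 and 94.5 CPM in WT-Veh, 101.2, 156.3 and 100.6 CPM in WT-Topot, 152.9, 180.0 and 155.3 CPM in Top1 cKO-Veh and 176.5, 183.6 and 153.4 CPM in Top1 cKO-Topot. The WT groups were spread over the same range and the Top1 cKO groups overlapped WT-Veh. No unblocked edgeR test passed, with log2 fold changes of -0.17 (SE 0.22, adjusted p = 0.974) for the drug and 0.27 (SE 0.21, adjusted p = 0.913) for the deletion. WT-Topot was lower than Top1 cKO-Veh with the replicate block, at -0.46 (SE 0.12, adjusted p = 0.00480), against -0.45 (SE 0.19, adjusted p = 0.324) without it. Its paralogue is Stxbp5l, the gene of tomosyn 2. Stxbp5l spans 270.021 kb and fell in WT-Topot relative to WT-Veh by 1.43 on the log2 scale (SE 0.19, adjusted p = 6.51e-05), from 208.1 ± 25.9 to 77.0 ± 11.03 CPM (SD, n = 3). In Top1 cKO-Veh, Stxbp5l was at 155.3 ± 16.9 CPM (-0.42, adjusted p = 0.492), and in Top1 cKO-Topot it was lower than in WT-Veh, at 93.2 ± 20.2 CPM (-1.14, SE 0.20, adjusted p = 0.00167). The drug effect on Stxbp5l in Top1 cKO cultures was -0.73 (adjusted p = 0.297), and with the block it was lower (-0.75, adjusted p = 1.35e-07).

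Nsf encodes the ATPase that recycles used SNARE bundles. Its counts were 508.8, 673.7 and 512.0 CPM in WT-Veh, 388.7, 464.5 and 370.4 CPM in WT-Topot, 591.7, 714.9 and 656.4 CPM in Top1 cKO-Veh and 668.8, 701.1 and 630.8 CPM in Top1 cKO-Topot. The 3 WT-Topot libraries were the lowest of the 12, a split whose share over all genes was not counted. The edgeR log2 fold change for the drug in WT cultures was -0.47 (SE 0.17, adjusted p = 0.184), and with the replicate block Nsf was lower, at -0.46 (SE 0.11, adjusted p = 6.81e-04), with all 3 same-number pairs between -0.54 and -0.39. Against Top1 cKO-Veh, WT-Topot was at -0.68 (SE 0.15, adjusted p = 0.0165), and with the block it was lower (-0.68, SE 0.08, adjusted p = 7.20e-08). DESeq2 also called it lower (-0.69, adjusted p = 7.81e-04). The unblocked edgeR test passed without the WT-Topot library numbered 2 (-0.76, adjusted p = 0.00972) and without the Top1 cKO-Veh library numbered 1 (-0.75, adjusted p = 0.00626) or 3 (-0.69, adjusted p = 0.00412). The deletion gave 0.21 (SE 0.17, adjusted p = 0.937) and the drug in Top1 cKO cultures 0.04 (SE 0.14, adjusted p = 1). The SNAP adaptors that couple NSF to the bundle passed no unblocked test, and with the block the WT-Topot level of Napb was below that of Top1 cKO-Veh (-0.32, adjusted p = 0.00174): Napb was at 1015 ± 120 CPM in WT-Veh and 941.8 ± 51.3 CPM in WT-Topot, and Napa was at 115.9 ± 4.36 and 117.4 ± 15.6 CPM (SD, n = 3).

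**Figure D3:**
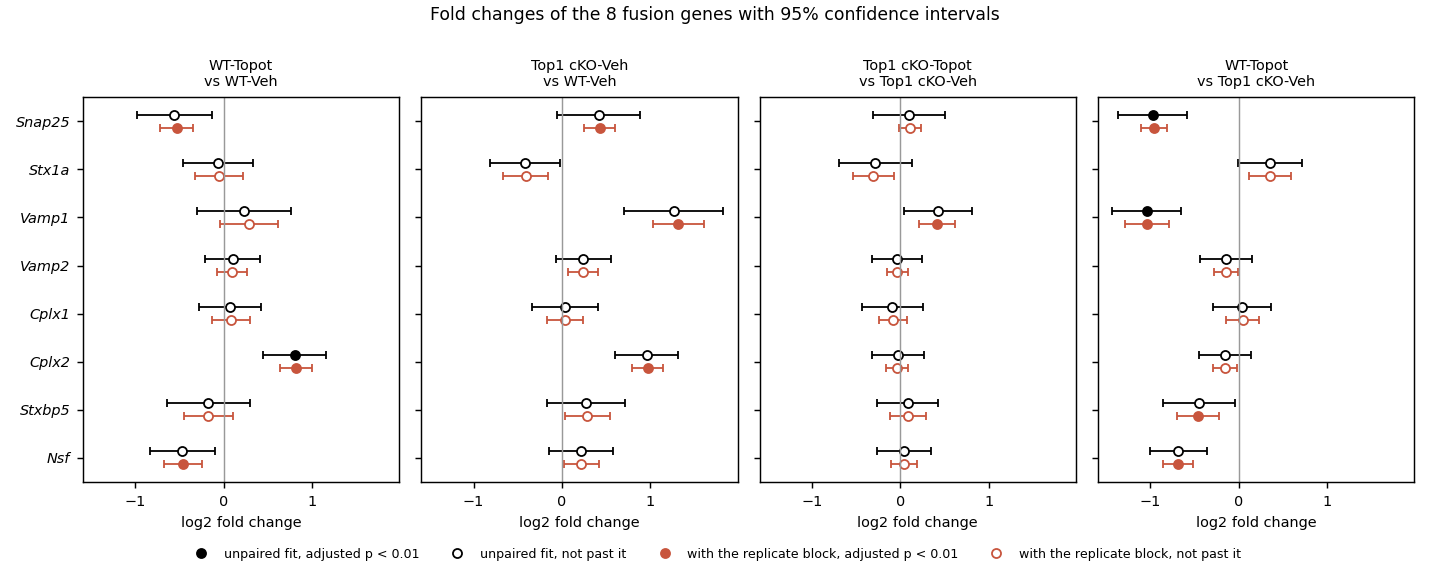
Log2 fold changes of the 8 fusion genes in 4 comparisons, with 95% confidence intervals, from the unpaired edgeR fit (black) and from the fit with the replicate block (red); filled points have an adjusted p under 0.01. The unpaired fit has filled points for Cplx2 in the first panel and for Snap25 and Vamp1 in the last, and the intervals with the block are narrower around nearly the same values.

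Counted together, 1 of 8 members was higher and 0 lower in WT-Topot than in WT-Veh, where 0.682% of all genes tested were higher and 2.04% lower. In Top1 cKO-Veh relative to WT-Veh 0 of 8 passed in either direction (0.046% of all genes were higher and 0.126% lower), although 3 members had an unadjusted p under 0.05 and DESeq2 called 2 higher. The drug in Top1 cKO cultures also gave 0 of 8 (0% and 0.00837% of all genes), with 1 member at an unadjusted p under 0.05 and 0 called by DESeq2. In Top1 cKO-Topot 2 members were higher than in WT-Veh and 0 lower (0.473% and 1.21% of all genes), and in WT-Topot 2 were lower than in Top1 cKO-Veh and 0 higher (1.23% and 0.293%). DESeq2 called 2 higher in the former comparison and 3 lower in the latter. The comparisons that use WT-Veh share those 3 libraries, and those that use Top1 cKO-Veh or a topotecan group share libraries as well, so they are not independent of each other.

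With the replicate block more members passed, as did more genes overall. In WT-Topot relative to WT-Veh, Cplx2 was higher and Snap25 and Nsf lower (3.24% of all genes higher, 5% lower). In Top1 cKO-Veh relative to WT-Veh, Snap25, Vamp1 and Cplx2 were higher and none lower (2.6% and 2.95%). Vamp1 alone was higher with the drug in Top1 cKO cultures (0.858% of all genes higher, 1.74% lower). Relative to WT-Veh, Top1 cKO-Topot was higher for Snap25, Vamp1 and Cplx2 and lower for Stx1a (3.34% and 4.02%), and relative to Top1 cKO-Veh, WT-Topot was lower for Snap25, Vamp1, Stxbp5 and Nsf (4.8% of all genes lower, 2.93% higher). The libraries themselves were also compared by whether all 3 of a group lay beyond all 3 of another, among the 13720 genes that averaged at least 1 CPM. In WT-Topot, Cplx2 lay wholly above WT-Veh (12.9% of genes did) and Nsf wholly below it (13.2%). In Top1 cKO-Veh, Vamp1, Vamp2 and Cplx2 lay above WT-Veh (9.58%) and Stx1a below it (10.3%), and in Top1 cKO-Topot these 4 genes did so in the same directions (12% above, 14.4% below). Stx1a lay above Top1 cKO-Veh in WT-Topot (12.1%), and Snap25, Vamp1 and Nsf below it (12.3%). Between the Top1 cKO groups all 8 members overlapped (5.17% of genes above, 6.56% below).

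The drug effect was also compared between the genotypes. None of the 8 members passed the interaction test of edgeR (0.398% of all genes were higher and 0.0377% lower), and 3 had an unadjusted p under 0.05, with 0 called by DESeq2. With the replicate block the drug effect was higher in Top1 cKO than in WT for Snap25 (difference of 0.64 on the log2 scale, SE 0.12, adjusted p = 1.74e-04) and Nsf (0.50, SE 0.13, adjusted p = 0.00841), and lower for Cplx2, as given above (2.44% of all genes higher, 1.53% lower). With the block Snap25 and Nsf were lower with the drug in WT cultures, as given above, and their unblocked drug effects in Top1 cKO cultures were 0.10 (95% confidence interval -0.30 to 0.51) and 0.04 (-0.27 to 0.34).

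The summed CPM of the 8 members was 4731, 6145 and 5766 in WT-Veh and 5548, 6128 and 5682 in WT-Topot. In the CRE libraries it was 6876, 7690 and 7669 with vehicle and 6992, 7604 and 7681 with topotecan. The CRE libraries were all above the tdTomato libraries in this sum, most of which is Vamp2, Snap25 and Cplx2. Beside the WT-Topot values stand those of the astrocyte markers, of which 3 of 9 were lower in WT-Topot than in WT-Veh (median log2 fold change -1.39) and 3 of 9 lower than in Top1 cKO-Veh (median -1.43), and of glutamatergic markers, of which 1 of 7 was higher (median 0.45; summed CPM 2546 to 2792 in WT-Veh and 2889 to 3323 in WT-Topot). With the block 5 of 9 astrocyte markers were lower in each of these comparisons, and 3 of 7 glutamatergic markers were higher than in WT-Veh and 2 of 7 higher than in Top1 cKO-Veh. In Top1 cKO-Veh relative to WT-Veh 0 of 9 astrocyte and 0 of 7 glutamatergic markers passed without the block, and with it 1 astrocyte marker, Slc1a2 (0.42), was higher and 1 of 7 glutamatergic markers was lower. With the drug in Top1 cKO cultures all 9 astrocyte markers were negative (median -0.64), 0 called lower without the block and 5 with it. In Top1 cKO-Topot relative to WT-Veh 0 of 9 were lower without the block and 4 with it. Glutamatergic markers with the block gave 1 of 7 higher in each of these 2 comparisons, and 1 of 7 lower relative to WT-Veh. The part of these markers in the members' values was not tested.

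The machinery around the core was followed in a wider list of 57 measured genes: further SNAREs, syntaxin-binding proteins, complexins, SNAP adaptors, priming factors, the calcium sensor and vesicle proteins. Only 55 of them averaged at least 1 CPM. In WT-Topot relative to WT-Veh 4 of the 57 were lower and 0 higher, with a median log2 fold change of -0.11 against 0.03 over the 13720 genes that averaged at least 1 CPM. With the block 8 were lower and 1 higher, DESeq2 gave 5 lower and 1 higher, and 12 lower and 3 higher had an unadjusted p under 0.05. Among all genes tested 2.04% were lower and 0.682% higher without the block, and 5% and 3.24% with it. The 4 were Syt1, the gene of the calcium sensor synaptotagmin 1 (-2.58, SE 0.19, edgeR adjusted p = 6.57e-08), the vesicle-priming factors Cadps (-2.26, SE 0.23, adjusted p = 3.42e-06) and Cadps2 (-2.11, SE 0.31, adjusted p = 1.65e-04), and Stxbp5l. Syt1 went from 1458, 1925 and 1736 CPM in WT-Veh to 223.2, 347.5 and 282.2 CPM in WT-Topot. It was at 1194, 1077 and 832 CPM in Top1 cKO-Veh and at 422.2, 404.2 and 388.6 CPM in Top1 cKO-Topot, and no 2 of these groups overlapped. How many of all genes had no overlapping groups was not counted. Unc13a, the gene of the priming factor Munc13-1, was at 354.0 ± 99.6 CPM in WT-Veh and 192.5 ± 12.2 CPM in WT-Topot (-0.88, SE 0.20, adjusted p = 0.0101), and with the block it was lower (adjusted p = 1.29e-08). It passed under 6 of 11 alternative fits, among them the block and DESeq2 (adjusted p = 0.00114).

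In Top1 cKO-Veh relative to WT-Veh 0 of the 57 passed without the block, and none by DESeq2, although 8 had an unadjusted p under 0.05; Syt1 was at -0.72 (SE 0.17, edgeR adjusted p = 0.0777). With the block 3 were lower, Syt1 (-0.73, adjusted p = 1.66e-13), Doc2a (-0.65) and the Golgi SNARE Ykt6 (-0.50), and 3 higher, Doc2b (0.73), the trans-Golgi SNARE Vamp4 (0.61) and Syn2 (0.42), the gene of synapsin 2. Among all genes 0.126% were lower and 0.046% higher without the block, and 2.95% and 2.6% with it. The drug in Top1 cKO cultures lowered 1 of the 57, Syt1 (-1.34, SE 0.16, adjusted p = 0.00324), a call lost without the Top1 cKO-Topot library numbered 2 (adjusted p = 0.0177) and with filterByExpr (adjusted p = 0.0405). With the block 5 of the 57 were lower in that comparison: Syt1 (-1.33), Vti1a (-0.75), Stxbp5l (-0.75), Cadps (-0.50) and Scfd1 (-1.67). Scfd1 had only 22, 33 and 9 counts in Top1 cKO-Veh and 2, 2 and 14 in Top1 cKO-Topot, and these groups overlapped. The share of all genes that were lower was 0.00837% without the block and 1.74% with it. In Top1 cKO-Topot relative to WT-Veh Syt1 (-2.05, SE 0.17, adjusted p = 2.60e-07) and Stxbp5l were lower, and Doc2b, which encodes a calcium-binding protein of spontaneous release, was higher (1.12, SE 0.22, adjusted p = 0.00456). Without the Top1 cKO-Topot library numbered 2 the calls of Doc2b (adjusted p = 0.0632) and Stxbp5l (adjusted p = 0.0181) were lost, and that of Doc2b also without the WT-Veh library numbered 2 (adjusted p = 0.0125) and with filterByExpr (adjusted p = 0.0148). With the block 4 of the 57 were lower and 4 higher. For all genes the shares were 1.21% lower and 0.473% higher without the block, and 4.02% and 3.34% with it. WT-Topot was lower than Top1 cKO-Veh for 8 of the 57 and higher for 0: Cadps (-2.19), Cadps2 (-2.11), Syt1 (-1.87), Vti1a (-1.10), Stxbp6 (-1.04), Stxbp5l (-1.01), Unc13a (-0.76) and Rph3a (-0.72). The calls of Vti1a, Stxbp6, Stxbp5l, Unc13a and Rph3a were lost without the WT-Topot library numbered 1 or 3 or the Top1 cKO-Veh library numbered 2 (adjusted p of 0.0161 to 0.0689). Those of Unc13a, Stxbp6 and Rph3a were also lost without the WT-Topot library numbered 2, that of Unc13a without the Top1 cKO-Veh library numbered 1, those of Vti1a and Stxbp6 with filterByExpr, and those of Unc13a and Rph3a in the fit of all 12 libraries (adjusted p of 0.0109 to 0.0369). With the block 13 of the 57 were lower and 0 higher. Shares over all genes in WT-Topot against Top1 cKO-Veh were 1.23% lower and 0.293% higher without the block, and 4.8% and 2.93% with it. Genes over 100 kb made up 6 of the 8 calls without the block and 7 of the 13 with it. Of the 2017 genes over 100 kb averaging at least 1 CPM, 226 were lower without the block and 662 with it.

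The wider list was split by gene span. Of its 12 genes over 100 kb, 4 were lower in WT-Topot than in WT-Veh and their median log2 fold change was -0.83, while of the 45 genes of 100 kb or less 0 passed by edgeR (4 lower and 3 higher at an unadjusted p under 0.05, and 1 lower and 1 higher by DESeq2) and the median was -0.03. With the block 6 of 12 were lower, and 2 of 45 lower and 1 higher. Of all 2017 genes over 100 kb averaging at least 1 CPM, 360 were lower without the block and 681 with it. Over all genes averaging at least 1 CPM the medians were -0.42 for the 2017 genes over 100 kb and 0.08 for 11315 shorter ones. Nsf (-0.47) and Stxbp5 (-0.17), the members over 100 kb, lay near and above the first of these medians, and Snap25 (-0.56), at 68.976 kb, lay below the second. In Top1 cKO-Veh the medians of the wider list were -0.04 over 100 kb and 0.06 at or under it. The span of Syt1 is 513.333 kb, that of Cadps 450.517 kb and that of Cadps2 576.649 kb.

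**Figure D4:**
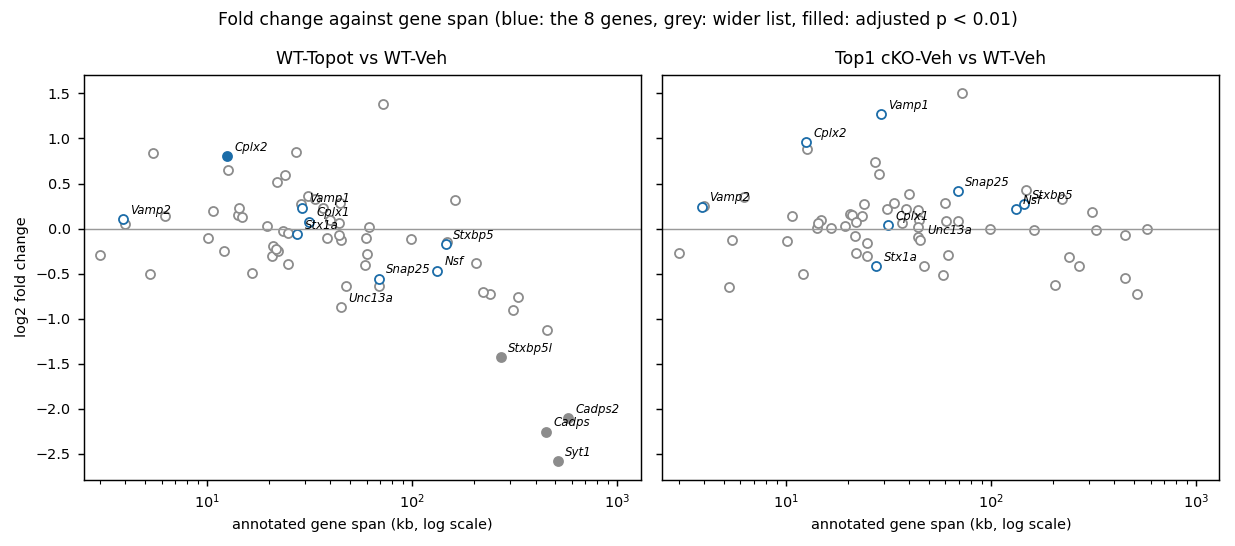
Log2 fold change (edgeR, unpaired fit) against the annotated gene span in kb on a log axis, for WT-Topot (left) and Top1 cKO-Veh (right) relative to WT-Veh, with the 8 members in blue, the wider fusion list (averaging at least 1 CPM) in grey and filled points for an adjusted p under 0.01. On the left the lower calls Syt1, Cadps, Cadps2 and Stxbp5l all span over 100 kb and Cplx2, at 12.566 kb, is the filled blue point above 0. On the right no point is filled. The Cplx2 span is that of GENCODE vM1 and leaves out its upstream RefSeq start.

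Patterns like those of the members were looked for among 9507 genes that averaged at least 10 CPM, as the smallest root mean square (RMS) difference between log2 values, centred for each gene, over the 12 libraries. The genes nearest to Cplx2 were Rgag4 (RMS difference 0.102), Zmym5 (0.146) and Epm2aip1 (0.154), where the RMS of Cplx2 around its own mean was 0.424. Epm2aip1 had 389 CPM in WT-Veh and 624 CPM in WT-Topot, then 671 and 748 CPM in the vehicle and topotecan groups of Top1 cKO. Nearest to Vamp1, whose own RMS was 0.769, were Rprml (0.261), the neuropeptide gene Cck (0.266) and Trib2 (0.284), and Cck had 199.9, 178.6, 335.1 and 412.4 CPM in the same order. Nearest to Snap25, whose own RMS was 0.513, were Camk2n1 (0.160), which encodes an inhibitor of CaMKII, Ensa (0.197) and Elavl2 (0.197). Camk2n1 had 1217, 990, 1680 and 1939 CPM. These likenesses describe the 12 libraries, which share their replicate numbers, and carry no test.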

How the data were processed

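RNA sequencing of 12 libraries, 3 in each of 4 groups, was analysed. The authors prepared polyA libraries from RNA with an integrity number above 7, sequenced 50-base paired ends, removed adapter and ribosomal reads, aligned with TopHat to mm9, and deposited raw read counts over RefSeq exons, summed by gene symbol; versions, the counting program and strand handling were not given in the sources used here. If strand was ignored, reads of overlapping genes on opposite strands cannot be separated.

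From these counts CPM were computed with TMM scaling, and each pair of groups was compared with the quasi-likelihood test of edgeR 4.0.16 in R 4.3.3, fitted on all 23893 genes of the 6 libraries concerned (the interaction used all 12), without a filter, with Benjamini-Hochberg adjustment over all genes and a threshold of 0.01. Alternatives were a replicate block, DESeq2 1.42.0 (Wald test, and its size factors), filterByExpr, 1 fit of all 12 libraries, leaving out each library, and raw totals for levels. Fits were tested on simulated data. Gene spans and exon lengths came from GENCODE vM1 on NCBIM37, with 1046 of the 23893 symbols matched through synonyms and 1834 not matched. Promoter windows came from RefSeq (GRCm38.p6) and were searched for exact motif matches on both strands.

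The labels number the libraries 1 to 3 in each group. Over 13720 genes, deviations from the group means correlated between all 18 pairs of libraries with the same number (r = 0.261 to 0.485). The numbers were therefore taken to pair the libraries, and the blocked value is given where it changes a call or a count. Correlations were negative in all 36 pairs with different numbers (r = -0.384 to -0.0494). Deviations cancel out within each group of 3, so these negative values follow in part from the centring and are not separate evidence of pairing. The labels do not say what a number stands for, so the p-values measure the spread between these libraries. edgeR estimates that spread with information shared across genes. With the block few degrees of freedom remain for a gene, so the smallest blocked p-values rest largely on the shared estimate, not on 3 pairs alone. For Vamp1 with the drug in Top1 cKO cultures the blocked test passed on same-number ratios of 0.64, -0.03 and 0.64. No libraries agreed within sampling noise.

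The 8 members are described in full. Of the wider list, Stxbp5l, Napa, Napb, Unc13a and Syt1 are named as partners of the members (the remaining partners are not reported here), others where they passed the threshold, up to the 10 with the largest change; genes that passed only with the block were named after their values were seen. Genes of similar pattern were sought for members that passed at least 1 comparison. Members, lists and tests were chosen with earlier results of these data known.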

Additional observations from a re-analysis of the deposited data

Results flagged for a closer look

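The effect of topotecan differed between Top1 cKO and WT cultures for Cadps of the wider fusion list, by 1.75 on the log2 scale (SE 0.32, edgeR interaction test, adjusted p = 0.00653): its counts were 253.4, 334.9 and 448.6 CPM in WT-Veh and 51.6, 81.9 and 82.7 CPM in WT-Topot, but 290.6, 302.3 and 396.8 CPM in Top1 cKO-Veh and 180.8, 226.8 and 289.4 CPM in Top1 cKO-Topot. That call was lost with filterByExpr (1.78, adjusted p = 0.0161) and when 1 of 7 libraries was left out: the WT-Veh library numbered 2, the WT-Topot libraries numbered 1 and 3, the Top1 cKO-Veh libraries numbered 1 and 2 and the Top1 cKO-Topot libraries numbered 2 and 3 (differences of 1.56 to 1.86). With the replicate block the same test called 3 members, which the unpaired fit did not: Snap25 (0.64), Nsf (0.50) and Cplx2 (-0.86). It also called 6 of the 57 genes of the wider list, Cadps (1.72), Cadps2 (1.64), Syt1 (1.24, adjusted p = 4.39e-08), Rph3a (0.90) and Unc13a (0.78, adjusted p = 4.19e-04) higher and Scfd1 (-2.93, on 2 to 33 counts a library) lower, where the unpaired fit called Cadps alone and DESeq2 called 2 higher. Among all genes the interaction was higher for 0.398% and lower for 0.0377% in the unpaired fit, and for 2.44% and 1.53% with the block.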

How the results depend on the processing

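No direction of a called result reversed. With the replicate block, 2 members in place of 0 were lower in WT-Topot than in WT-Veh, 3 in place of 0 were higher in Top1 cKO-Veh than in WT-Veh, 1 in place of 0 was higher with the drug in Top1 cKO cultures, 1 in place of 0 was lower in Top1 cKO-Topot than in WT-Veh, 4 in place of 2 were lower when WT-Topot was set against Top1 cKO-Veh, and the interaction gave 1 lower and 2 higher in place of 0; the remaining counts of members stayed within 1.5 times. With filterByExpr, 0 in place of 1 were higher in WT-Topot and 1 in place of 2 in Top1 cKO-Topot relative to WT-Veh, and 1 in place of 2 lower between WT-Topot and Top1 cKO-Veh. DESeq2 called 2 and the fit of all 12 libraries 1 higher in Top1 cKO-Veh than in WT-Veh. Between WT-Topot and Top1 cKO-Veh the fit of all 12 libraries called 0 lower and DESeq2 called 3 in place of 2. The causes were not tested. 

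Leaving out 1 library gave 0 to 1 members lower and 0 to 1 higher in WT-Topot relative to WT-Veh, 0 to 2 higher in Top1 cKO-Veh and 1 to 3 higher in Top1 cKO-Topot relative to WT-Veh, and 0 to 3 lower between WT-Topot and Top1 cKO-Veh. Besides the losses given with each gene, Snap25 was lower in WT-Topot than in WT-Veh without the WT-Veh library numbered 1 (-0.78, adjusted p = 0.00220) and higher in Top1 cKO-Topot without the WT-Veh library numbered 3 (0.69, adjusted p = 0.00676). Vamp1 in Top1 cKO-Topot relative to WT-Veh passed under all 11 alternatives (adjusted p at most 0.00766). The lowest library total was 1730164 counts, and the 95% intervals of Vamp1 were about 1 log2 unit wide.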
